A study of Homo sapiens with 24 samples.

Results

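The nuclear genes for the subunits of oxidative phosphorylation were followed in 2 ovarian cancer cell lines treated with 5-FdU-ECyd. Members were all listed protein-coding nuclear genes whose symbols are those of complex I (NDUFA, NDUFB, NDUFC, NDUFS or NDUFV with a number), complex II (SDHA to SDHD), complex III (UQCR genes and CYC1), complex IV (COX4 to COX8) or ATP synthase (ATP5). The rule used names and no measured value, and it took 90 of the 63299 genes in the count table. By complex these were 7 core and 30 further genes of complex I, 4 of complex II, 10 of complex III, 19 of complex IV (NDUFA4 and NDUFA4L2, which carry a complex I name, are placed there) and 20 of ATP synthase. Members lay on 22 different chromosomes. In total, 84 members passed the filter on low counts and were tested. The other 6 (ATP5MGL, COX4I2, COX6A2, COX7A1, COX7B2 and COX8C) were not tested.

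The samples were 24 RNA-Seq libraries of A2780, a platinum-sensitive ovarian cancer line, and of A2780cis, its platinum-resistant isogenic counterpart, which was kept resistant by an occasional passage in cisplatin and was seeded at a higher cell number. Each line received medium with 1 µM 5-FdU-ECyd, a duplex drug that joins 5-fluorodeoxyuridine to the cytidine analogue ethynylcytidine, or plain growth medium as control, and was harvested after 6 h or 12 h. The 8 groups of line, agent and time held 3 libraries each. The study calls them biological triplicates, while neither the labels nor its methods say whether they came from separate cultures, and p-values measure the spread between these libraries.

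Oxidative phosphorylation couples the oxidation of NADH and succinate to the making of ATP at the inner mitochondrial membrane. Complex I takes electrons from NADH and complex II from succinate, ubiquinone passes them to complex III, cytochrome c carries them to complex IV, which reduces oxygen, and the proton gradient built on the way drives ATP synthase. Most subunits are encoded in the nucleus, a minority in the mitochondrial genome, and complex II is wholly nuclear.

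Library totals ranged from 11077368 to 21901406 counts. CPM values (counts scaled to a common library size by the trimmed mean of M-values) are relative to the library and not per cell. In bulk RNA a lower level in every cell and fewer cells with the transcript cannot be told apart. The study describes ethynylcytidine as an inhibitor of RNA polymerase. A gene that rose here took a larger share of the counts, and whether its amount per cell rose was not tested. Changes are log2 fold changes with their standard error (SE) from edgeR's quasi-likelihood fit of all 8 groups, and "edgeR adjusted p" is the Benjamini-Hochberg value over all 20240 tested genes, with calls at 0.05 or below. Of the markers examined, VIM, an intermediate filament gene of mesenchymal cells, stood at 843 to 2617 CPM as group mean. The other mesenchymal markers were far lower, CDH2 at 1.28 to 49.7 and FN1 at 0.872 to 3.24 CPM. CDH1, PAX8, WT1, MUC16 and SOX17, typical of epithelial or serous ovarian tumours, did not exceed 0.0633 CPM in any group. The epithelial markers EPCAM and KRT19 did not exceed 1.35 and 0.146 CPM. KRT8 and KRT18, keratins of simple epithelia, stood at 0.751 to 5.97 and at 1.11 to 26.5 CPM. PTPRC, the pan-leukocyte marker, did not exceed 0.0162 CPM, PECAM1 of endothelial cells 0.0284 CPM and ALB of hepatocytes 0.15 CPM. COL1A1, a fibroblast marker, stood at 0.413 to 14.7 CPM. Several defining markers of epithelial ovarian cancer were therefore at or near 0 in both lines.

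Per kilobase of canonical transcript, UQCRH, the hinge protein of complex III, had the highest median level over the 24 libraries with 630 CPM per kilobase. It was followed by ATP5F1B, the catalytic beta subunit of ATP synthase, with 511 CPM per kilobase and by NDUFS5, an accessory subunit of complex I, with 429 CPM per kilobase. UQCRH and UQCRHL are near-identical in sequence, and their shares of the reads depend on how the reads were split between them. In untreated A2780 cells at 6 h, the median member of ATP synthase had 260 CPM per kilobase and that of complex IV 219, against 142 in complex II, 92.3 in complex III, 76.8 among the further genes of complex I and 41.2 among its core genes. The spread within a complex exceeded these differences, as complex III genes of that group ran from 22 to 717 CPM per kilobase.

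The tissue-restricted isoforms were low or absent. COX6A2, the heart and muscle isoform, had no count in any library. COX4I2, the lung isoform, had 1 count in 1 library. COX7A1 did not exceed 11 counts, COX7B2 and COX8C did not exceed 3 counts, and ATP5MGL did not exceed 6.5. COX6B2, the testis isoform, and NDUFA4L2, a paralogue of NDUFA4, were tested with at most 34 and 37 counts in a library. All other tested members had at least 39 counts in every library.

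Members were chosen by name, and 70 of the 90 had a promoter window (250 bases before to 50 after the start, RefSeq, GRCh38.p14). Letters of 5 known promoter motifs were searched on both strands. The NRF1 core CGCATGCG was found in 10 of 70 windows (14.3%), against 2.02% of all 35116 promoters in the table. The ETS core CCGGAAGT, bound by the GABP factor, was found in 10 windows (14.3% against 4.14%) and the YY1 core AAGATGGC in 11 (15.7% against 2.89%). The CCAAT box was found in 35.7% of windows against 34.6% of all promoters, and the GC box GGGCGG in 61.4% against 45.0%. Of the 46 members that rose in treated A2780cis at 12 h and had a window, 6 held the NRF1 core, 8 the ETS core, 5 the YY1 core, 20 CCAAT and 29 the GC box, while of the 21 other tested members 4, 2, 6, 3 and 14 did. Matches are letters in a window and no sites of binding.

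The windows of 4 genes are given here because these genes stand for the patterns of the 12 h comparisons. UQCRQ (chr5:132866392-132866691, plus strand) and COX8A (chr11:63974370-63974669, plus strand) rose in treated A2780cis, ATP5MC1 (chr17:48892537-48892836, plus strand) fell in A2780 and rose in A2780cis, and NDUFB10 (chr16:1959288-1959587, plus strand) fell in both lines. The call of NDUFB10 in A2780cis was lost under several settings given below. Capitals mark matches of the 5 motifs on either strand: an ETS core in UQCRQ, an ETS core, a GC box and 2 CCAAT boxes in COX8A, 4 CCAAT boxes in ATP5MC1 and a GC box in NDUFB10.
UQCRQ: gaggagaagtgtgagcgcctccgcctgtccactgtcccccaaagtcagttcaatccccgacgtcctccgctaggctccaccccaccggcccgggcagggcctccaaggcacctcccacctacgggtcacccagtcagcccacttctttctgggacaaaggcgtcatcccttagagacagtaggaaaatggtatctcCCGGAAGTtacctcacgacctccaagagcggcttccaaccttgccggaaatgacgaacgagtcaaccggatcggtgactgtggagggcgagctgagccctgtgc
COX8A: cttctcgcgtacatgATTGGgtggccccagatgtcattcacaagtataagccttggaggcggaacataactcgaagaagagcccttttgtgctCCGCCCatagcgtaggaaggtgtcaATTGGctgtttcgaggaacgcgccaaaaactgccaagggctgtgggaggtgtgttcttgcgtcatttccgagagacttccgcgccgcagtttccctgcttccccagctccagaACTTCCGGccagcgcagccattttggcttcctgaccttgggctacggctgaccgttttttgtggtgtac
ATP5MC1: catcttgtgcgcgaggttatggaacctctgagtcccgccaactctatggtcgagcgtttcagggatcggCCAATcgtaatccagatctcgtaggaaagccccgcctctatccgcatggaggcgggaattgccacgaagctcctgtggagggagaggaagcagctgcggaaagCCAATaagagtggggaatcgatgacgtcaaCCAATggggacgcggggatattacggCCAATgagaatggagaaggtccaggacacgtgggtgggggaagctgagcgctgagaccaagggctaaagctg
NDUFB10: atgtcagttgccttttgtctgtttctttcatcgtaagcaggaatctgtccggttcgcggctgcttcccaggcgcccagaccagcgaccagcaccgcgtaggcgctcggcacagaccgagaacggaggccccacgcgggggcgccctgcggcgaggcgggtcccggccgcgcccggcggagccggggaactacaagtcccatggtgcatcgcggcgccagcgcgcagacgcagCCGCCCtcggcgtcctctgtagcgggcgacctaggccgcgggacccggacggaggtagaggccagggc

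**Figure D1:**
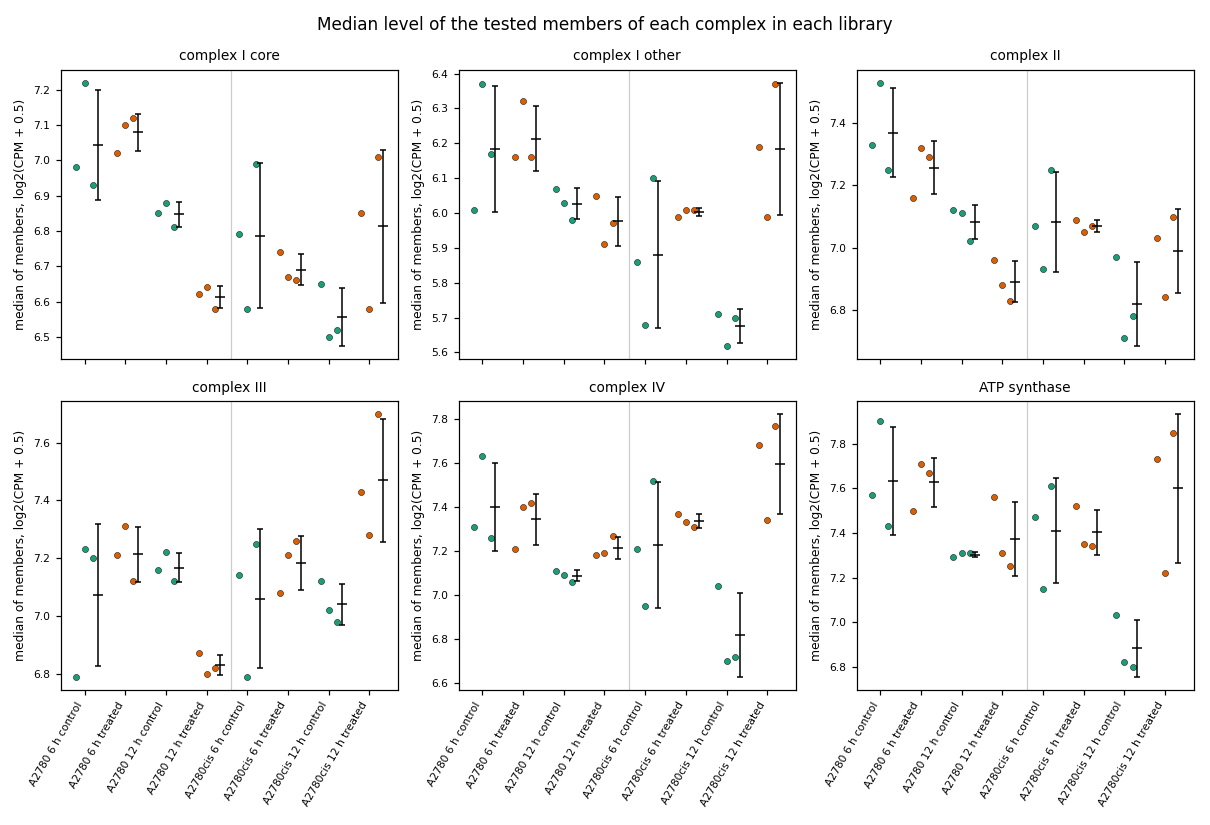
Median log2(CPM + 0.5) of the tested members of each complex (vertical axis) in each library, by group (horizontal axis); green points are control and orange points treated libraries, 3 per group, and bars give the group mean ± SD. Complex IV medians of untreated A2780cis at 12 h lay between 6.70 and 7.04, and those of the treated libraries between 7.34 and 7.77.

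Treatment of A2780cis cells for 12 h was the comparison with the largest number of member calls. Of the 84 tested members, 59 rose and 2 fell, whereas 31.0% of all tested genes rose and 28.9% fell. The median change of the members was 0.59 on the log2 scale, against 0.04 over all tested genes. The members together summed to 9498 ± 649 CPM in the control group and 12989 ± 2097 CPM in the treated group (SD, n = 3). By library the sums were 10242, 9051 and 9202 CPM in controls and 13570, 10663 and 14735 CPM after treatment. The groups did not overlap, but the second treated library lay close to the first control library. Leaving out each library in turn left between 51 and 63 member calls.

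The complexes moved unequally in A2780cis at 12 h. In complex IV, 13 of 14 tested members rose and none fell, with a median change of 0.74. Among the further genes of complex I, which surround the catalytic core, 25 of 30 rose and 1 fell, with a median of 0.61, while of the 7 core genes, which hold the flavin and iron-sulphur centres, 1 rose and none fell, with a median of 0.02. In complex III, 6 of 10 rose and 1 fell, in ATP synthase 12 of 19 rose, and in complex II 2 of 4 rose. The core genes NDUFS7, NDUFS8 and NDUFV1 have canonical transcripts of over 60% GC. Of all 10 members of that class 3 rose (30.0%), against 30.6% of other nuclear protein-coding genes. In the classes of lower GC content 52.9% to 92.9% of members rose, against 20.2% to 33.6% of other genes. No test of a complex against another was made, and the part of GC content in this split was not tested.

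Among the named genes, UQCRQ (chromosome 5, 132866630 to 132868847, GRCh38), a small subunit of complex III, had 117, 105 and 114 CPM in untreated A2780cis at 12 h and 205, 170 and 240 CPM after treatment. Every treated library lay above every control. The change was 0.87 ± 0.12 (log2, SE; edgeR adjusted p = 7.16e-07). The gene overlaps GDF9 on the opposite strand, and the strand setting of the counting was not given in the sources used here.

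COX8A (chromosome 11, 63974620 to 63976543), a small subunit of complex IV, rose from 104, 88.7 and 103 CPM to 190, 183 and 212 CPM, a change of 0.98 ± 0.16 (edgeR adjusted p = 8.29e-06). NDUFB1 (chromosome 14, 92116122 to 92121917), an accessory subunit of complex I, rose from 50.8, 41.5 and 39.2 CPM to 84.8, 68.9 and 107 CPM, a change of 0.99 ± 0.13 (edgeR adjusted p = 5.93e-07). ATP5IF1 (chromosome 1, 28236109 to 28246906), which encodes the inhibitor that stops ATP synthase from running backwards, rose from 62.6, 61.3 and 65.9 CPM to 119, 101 and 129 CPM, a change of 0.88 ± 0.10 (edgeR adjusted p = 4.55e-08). In all 3 genes the groups were separate.

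The members that fell in this comparison were CYC1 and NDUFB10. CYC1, the cytochrome c1 of complex III, had 240, 233 and 254 CPM in controls and 175, 181 and 212 CPM after treatment, a change of -0.36 ± 0.14 (edgeR adjusted p = 0.0309). NDUFB10, an accessory subunit of complex I, had 70.5, 65.7 and 71.2 CPM in controls and 56.5, 47.4 and 68.3 CPM after treatment, a change of -0.27 ± 0.11 (edgeR adjusted p = 0.0391). Both calls depended on the setting. NDUFB10 was no longer called without the first or the third control library (edgeR adjusted p = 0.0800 and 0.0895), without the first or the second treated library (0.0552 and 0.257), under scaling by library size (0.145), without lncRNA and rRNA genes (0.0996), over nuclear protein-coding genes alone (0.203) or in a fit of the compared groups alone (0.0936). CYC1 was no longer called without the third control library (edgeR adjusted p = 0.0794), without the first or the second treated library (0.0784 and 0.0822), under scaling by library size (0.141), without lncRNA and rRNA genes (0.0703) or over nuclear protein-coding genes alone (0.117). With offsets for GC content and length the changes were called and larger, at -0.66 for NDUFB10 and -0.56 for CYC1.

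**Figure D2:**
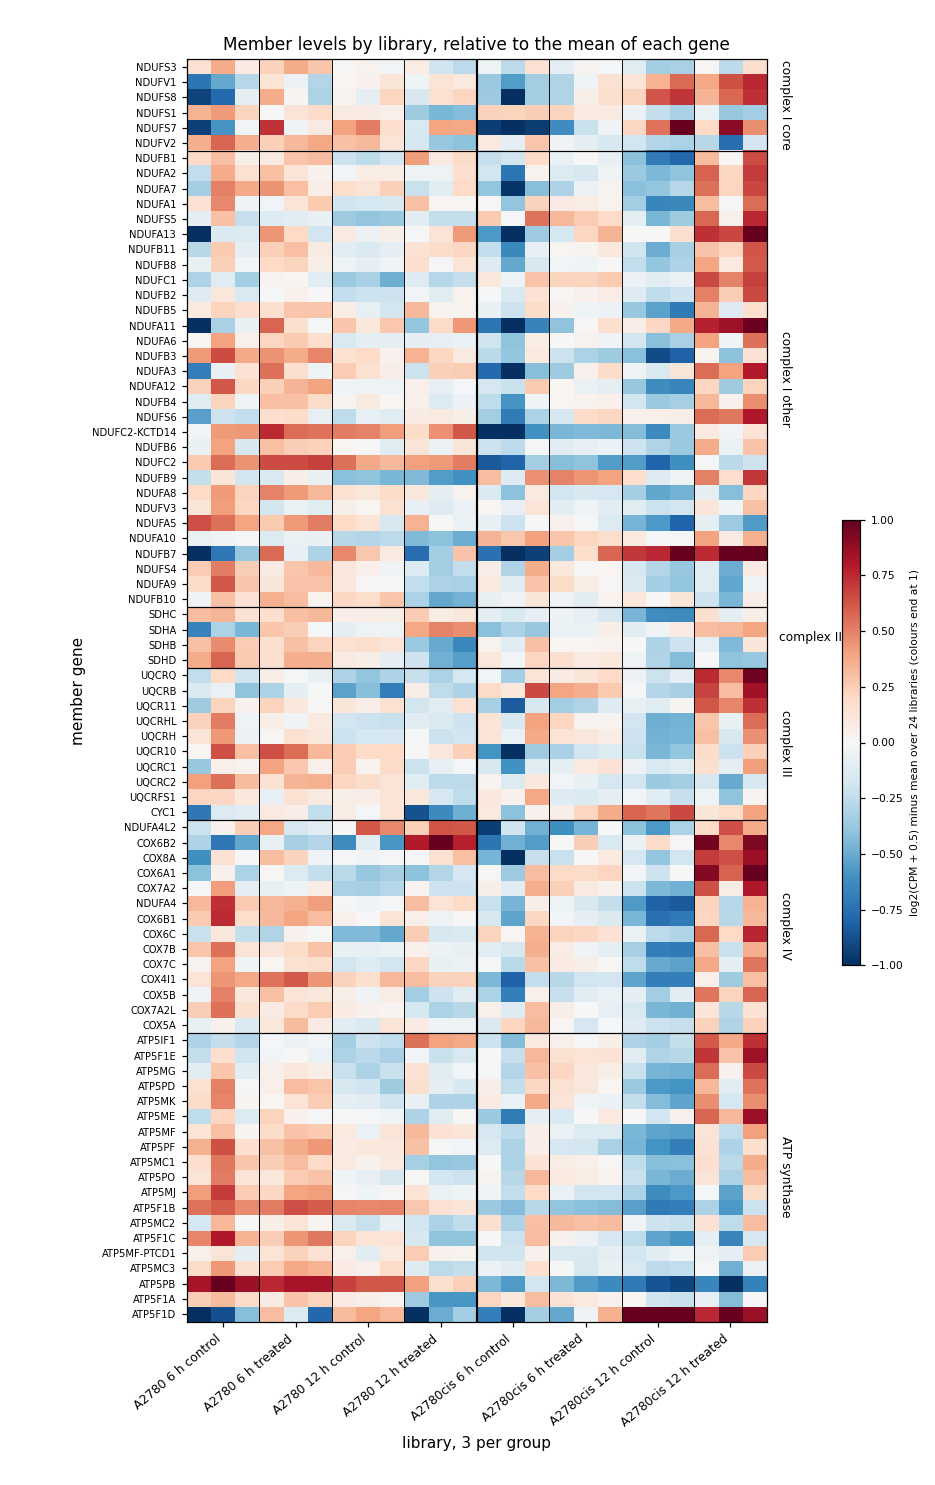
Level of the tested members (rows, a gene not reported here left out, grouped by complex and ordered within each by their change in treated A2780cis at 12 h) in the 24 libraries (columns, 3 per group), as log2(CPM + 0.5) minus the mean of the gene over all libraries; red is above and blue below that mean, with colours ending at 1. The 3 treated A2780cis libraries at 12 h are mostly red, with the second of them pale or blue for many members.

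Transcript length moved with these changes. Canonical transcripts of the tested members had a median length of 784 nt, against 3283 nt over all tested nuclear protein-coding genes, and 49 of 84 were no longer than 1000 nt. In treated A2780cis at 12 h, other nuclear protein-coding genes with transcripts of up to 750 nt had a median change of 0.45, and 219 of 408 (53.7%) rose, while 34 of 39 members of that length (87.2%) rose with a median of 0.66. In transcripts over 4000 nt the medians were -0.33 for other genes and 0.28 for the 8 members. The median of the members lay above that of the other genes in each of the 6 length classes, with the least distance at 750 to 1000 nt (0.40 against 0.36). Over the 84 members, Spearman's rho of change and transcript length was -0.42, a description across genes that share the same 6 libraries. With the number of exons rho was -0.54, and with the length of the gene -0.32. With offsets fitted for GC content and length in each library, 55 members rose and 8 fell, and the members' median change was 0.30 in place of 0.59. The shares of all tested genes called with the offsets are not given here, so these counts have no background beside them. Beyond these offsets the part of length in the changes was not tested.

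**Figure D3:**
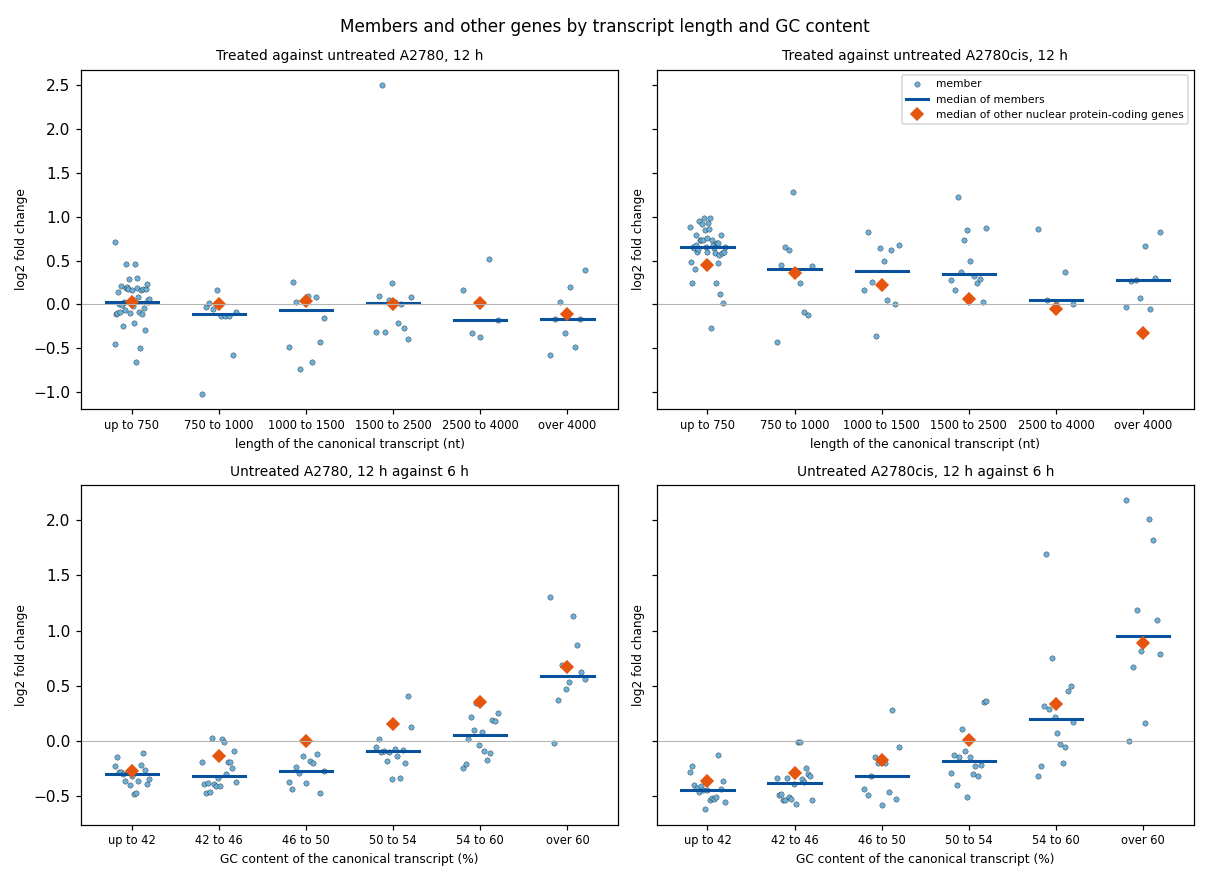
Log2 fold change of each member (blue points), the median of the members (blue line) and the median of the other nuclear protein-coding genes (orange diamonds) by class of transcript length (upper panels, treatment at 12 h) and of GC content (lower panels, untreated cells, 12 h against 6 h). In treated A2780cis the orange medians go from 0.45 in the shortest to -0.33 in the longest class, and in untreated cells they go from -0.27 to 0.67 (A2780) and from -0.36 to 0.89 (A2780cis) with rising GC content.

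In A2780 cells at 12 h, 6 members rose and 16 fell, whereas 28.6% of all tested genes rose and 26.1% fell. The members' median change was 0.00, against 0.02 over all tested genes. Of the falling genes, 7 were subunits of ATP synthase (7 of 19), 2 were core and 2 further genes of complex I, and 2 belonged to each of complex II and complex III. The remaining one was COX7A2L. The direction of this split depended on the scaling. When libraries were scaled by their totals alone, the median of all tested genes was 0.24 and 31 members rose and 8 fell, and over nuclear protein-coding genes alone 11 rose and 15 fell. With GC content and length offsets 25 rose and 20 fell, and in a fit of the compared groups alone 17 rose and 20 fell. The shares of all tested genes called under these settings are not given here. Leaving out each library in turn left between 19 and 23 calls.

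Of the falling genes in A2780, CYC1 had 169, 159 and 177 CPM in controls and 87.4, 103 and 114 CPM after treatment, with a change of -0.73 ± 0.14 (edgeR adjusted p = 1.15e-04). NDUFB10 fell from 75.5, 73.9 and 79.5 CPM to 52.3, 45.6 and 46.9 CPM, by 0.66 on the log2 scale (SE 0.11, edgeR adjusted p = 1.74e-05). Both were clear of their controls. NDUFV2, a core iron-sulphur subunit of complex I, had 134, 137 and 120 CPM in controls and 97.5, 83.9 and 82.1 CPM after treatment, a change of -0.57 ± 0.12 (edgeR adjusted p = 1.66e-04). ATP5F1D, the delta subunit of ATP synthase, changed by -1.02 ± 0.28 (edgeR adjusted p = 0.00313), from 19.5, 20.6 and 19.8 CPM to 6.03, 10.9 and 12.2 CPM. Its transcript has a GC content of 69.5%, the highest among the tested members, and its level also differed strongly between control libraries of the 2 harvest times.

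The genes that rose in A2780 at 12 h were ATP5IF1, COX6B2, COX6C, NDUFB1, SDHA and UQCRB, and each of them also rose in A2780cis. ATP5IF1 had 61.3, 67.3 and 65.3 CPM in controls and 114, 103 and 101 CPM after treatment, a change of 0.71 ± 0.10 (edgeR adjusted p = 1.61e-06). NDUFB1 changed by 0.46 ± 0.13 (edgeR adjusted p = 0.00481), from between 56.9 and 59.3 CPM to between 72.2 and 90.9 CPM. COX6B2 went from 0.132, 0.405 and 0.154 CPM to 1.19, 1.66 and 1.17 CPM, a change of 2.50 ± 0.35 (edgeR adjusted p = 1.32e-06) at a very low level.

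Calls of UQCRB, which encodes the ubiquinone-binding protein of complex III, COX6C, a small subunit of complex IV, and COX7A2L, which takes part in joining respiratory complexes, were weaker in A2780. UQCRB changed by 0.39 ± 0.14 (edgeR adjusted p = 0.0253) and was not called without the first or the third control library (0.0662 and 0.115) or without the first treated library (0.172). COX6C changed by 0.46 ± 0.13 (edgeR adjusted p = 0.00484) and was not called without the first treated library (0.0607). COX7A2L changed by -0.31 ± 0.12 (edgeR adjusted p = 0.0328), and it was not called without any 1 of the 3 control libraries (0.0584, 0.0578 and 0.0543), without the second or the third treated library (0.0890 and 0.0703), over nuclear protein-coding genes alone (0.0529) or under scaling by library size (0.464).

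The question of whether both lines responded alike was put to the interaction of line and treatment, which is the change in A2780cis minus the change in A2780. At 12 h, 51 members had a higher change in A2780cis and none a lower one, whereas 9.70% of all tested genes had a higher and 14.0% a lower change. The median difference of the members was 0.54, against -0.04 over all genes. By complex, 3 of 7 core and 19 of 30 further genes of complex I, 2 of 4 of complex II, 6 of 10 of complex III, 10 of 14 of complex IV and 11 of 19 of ATP synthase passed the test. The count was 26 to 66 when single libraries were left out. It was 30 without the second and 33 without the third A2780cis control library, 32 without the first and 26 without the third treated A2780cis library, each time in the same direction. With GC content and length offsets 38 members had a higher and 3 a lower change in A2780cis, and the median difference was 0.29. The shares of all tested genes in that fit are not given here. Other genes with transcripts of up to 750 nt had a median difference of 0.42, and those over 4000 nt of -0.26.

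The members with the smallest p of this difference were ATP5MC1, COX6A1, ATP5F1B, UQCRQ and SDHC. ATP5MC1 (chromosome 17, 48892765 to 48895871), one of 3 genes for the ring subunit c of ATP synthase, fell in A2780 from 122, 117 and 122 CPM to 90.1, 86.5 and 87.3 CPM. In A2780cis it went from 95.6, 84.6 and 85.3 CPM to 128, 94.3 and 147 CPM, with 1 treated library inside the range of the controls. The changes were -0.45 ± 0.12 and 0.48 ± 0.12, and they differed by 0.93 ± 0.17 (edgeR adjusted p = 3.91e-04).

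ATP5F1B was the most abundant member by CPM in A2780, with 1295, 1289 and 1295 CPM in controls and 1114, 1020 and 1002 CPM after treatment. In A2780cis the same gene had 633, 566 and 572 CPM in controls and 742, 619 and 795 CPM after treatment, with the second treated library below the first control. The difference between the changes (-0.31 and 0.28) was 0.59 ± 0.13 (edgeR adjusted p = 0.00159). COX6A1, a subunit of complex IV, changed by 0.03 ± 0.13 in A2780 and by 0.95 ± 0.13 in A2780cis, where it went from 139, 123 and 142 CPM to 269, 214 and 298 CPM. The difference was 0.92 ± 0.19 (edgeR adjusted p = 0.00106). For UQCRQ the change in A2780 was 0.09 ± 0.12, and the difference was 0.78 ± 0.17 (edgeR adjusted p = 0.00165).

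**Figure D4:**
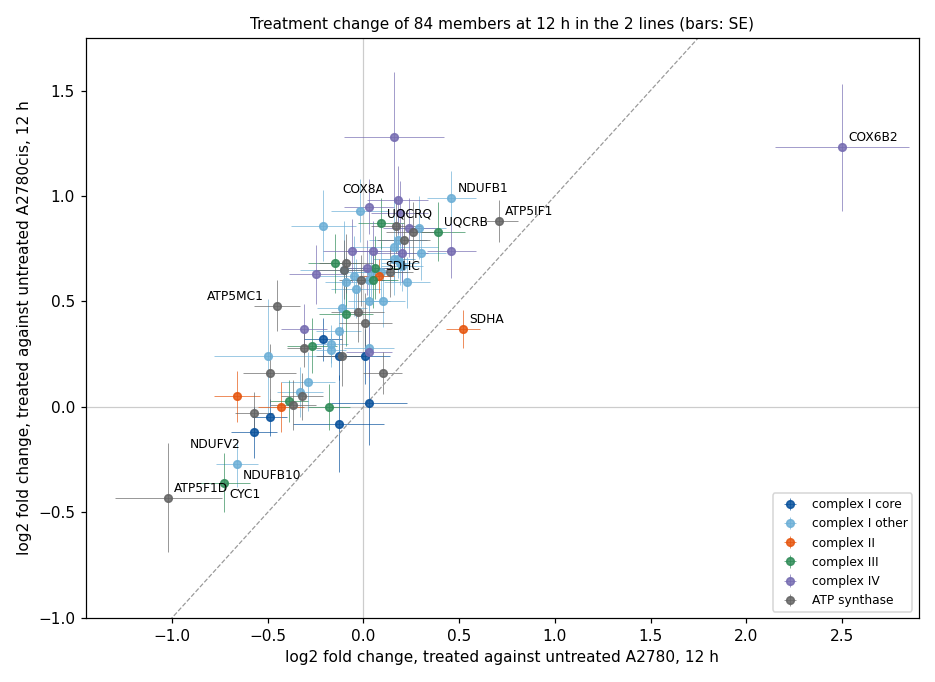
Log2 fold change at 12 h, treated against untreated, in A2780 (horizontal axis) and A2780cis (vertical axis) for the 84 tested members, coloured by complex, with bars for the SE and a dashed line where both changes are equal. Most members lie above the line; SDHA lies below it at 0.52 and 0.37, and COX6B2 lies to the far right at 2.50 and 1.23.

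Side by side at 12 h, 50 members were called up in A2780cis and not called in A2780, 11 were called down in A2780 and not called in A2780cis, and 12 were called in neither line. The 3 genes ATP5F1B, ATP5MC1 and COX7A2L were called in opposite directions, 6 were called up in both lines and 2 (CYC1 and NDUFB10) down in both. The A2780cis calls of these last 2 depended on the setting, as given above. Singly, 31.0% of all tested genes rose and 28.9% fell in A2780cis, and 28.6% rose and 26.1% fell in A2780. Their shares in the joint classes are not given here, so the joint counts have no background beside them.

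Complex II, which oxidises succinate and links the citric acid cycle to the chain, was described gene by gene. SDHA (chromosome 5, 218303 to 257082), the flavoprotein that holds the catalytic site, rose in every treatment comparison. In A2780 at 6 h it had 66.1, 84.7 and 76.8 CPM in controls and 128, 125 and 104 CPM after treatment, a change of 0.65 ± 0.09 (edgeR adjusted p = 6.27e-06). At 12 h it went from 98.5, 102 and 102 CPM to 138, 149 and 146 CPM (0.52 ± 0.09, edgeR adjusted p = 2.08e-05). In A2780cis the changes were 0.35 ± 0.09 at 6 h (edgeR adjusted p = 0.00405) and 0.37 ± 0.09 at 12 h (edgeR adjusted p = 8.86e-04), where it went from 97.9, 103 and 112 CPM to 131, 133 and 139 CPM. The groups did not overlap in A2780 or A2780cis at either time. Counts of SDHA were not all whole, as reads shared with other loci were counted in fractions.

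SDHB (chromosome 1, 17018664 to 17054032), the iron-sulphur subunit, moved the other way in A2780 at 12 h. It fell from 139, 141 and 137 CPM to 96.5, 88.2 and 79.6 CPM, by 0.66 on the log2 scale (SE 0.12, edgeR adjusted p = 3.05e-05). In A2780cis it had 125, 101 and 108 CPM in controls and 118, 92.0 and 136 CPM after treatment, a change of 0.05 ± 0.12 (edgeR adjusted p = 0.725). This change turned to -0.16 and was called with GC content and length offsets (edgeR adjusted p = 0.00804), in the same direction as in A2780. The difference of the 2 lines was 0.71 ± 0.16 (edgeR adjusted p = 0.00275).

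SDHC (chromosome 1, 161314381 to 161363206), a membrane anchor that binds haem, had 207, 207 and 206 CPM in A2780 controls at 12 h and 235, 208 and 214 CPM after treatment (0.08 ± 0.08, edgeR adjusted p = 0.430). With scaling by library size this change was called (0.30, edgeR adjusted p = 1.71e-04). In A2780cis SDHC rose from 143, 128 and 127 CPM to 221, 184 and 206 CPM, a change of 0.62 ± 0.08 (edgeR adjusted p = 5.76e-07). The difference between lines was 0.54 ± 0.12 (edgeR adjusted p = 0.00178). SDHD (chromosome 11, 112086824 to 112120016), the other anchor, fell in A2780 from 138, 135 and 121 CPM to 112, 92.7 and 88.4 CPM (-0.43 ± 0.12, edgeR adjusted p = 0.00295), a call lost under scaling by library size (-0.21, edgeR adjusted p = 0.0627). In A2780cis it changed by 0.00 ± 0.12 (edgeR adjusted p = 0.989). At 6 h the changes of SDHB, SDHC and SDHD lay between -0.12 and 0.02 in both lines and none was called. The 4 genes of complex II thus had unequal changes in A2780 at 12 h, from -0.66 to 0.52.

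**Figure D5:**
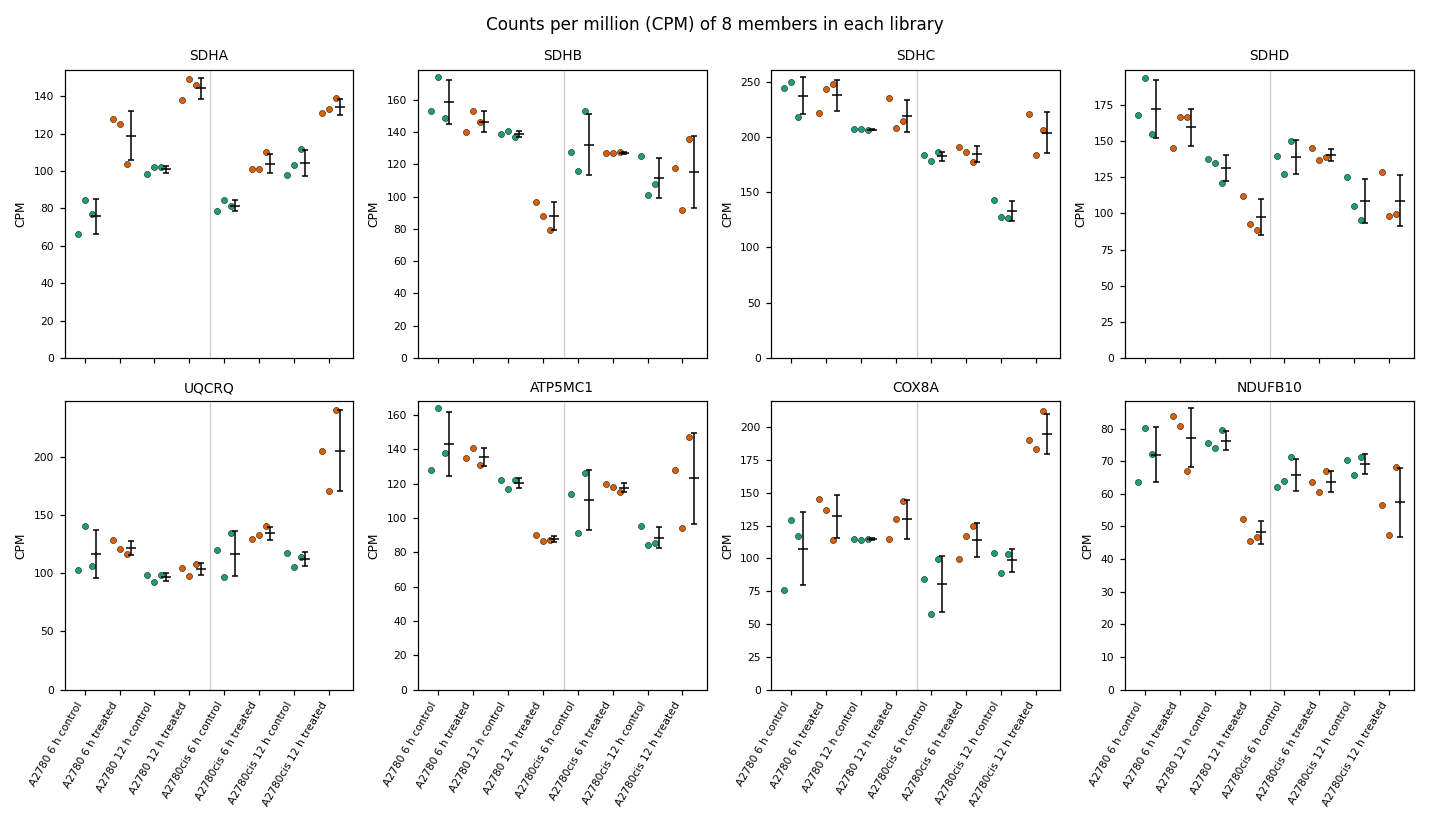
CPM of the 4 complex II genes and of UQCRQ, ATP5MC1, COX8A and NDUFB10 in each library (vertical axes start at 0), by group; green points are control and orange points treated libraries, 3 per group, and bars give the mean ± SD. SDHA was higher after treatment in all 4 comparisons, whereas SDHB at 12 h was lower after treatment in A2780 (88.1 ± 8.47 against 139 ± 1.60 CPM) and overlapped in A2780cis.

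At 6 h fewer members changed. In A2780, 7 rose and 1 fell, whereas 16.0% of all tested genes rose and 13.4% fell. In A2780cis, 15 rose and 1 fell, whereas 14.4% of all tested genes rose and 16.3% fell. The medians were 0.05 and 0.04. NDUFS7, NDUFV1, NDUFA11, NDUFB7, NDUFS6 and SDHA rose in both lines. The first 5 of these are complex I subunits, and they were among the members with the highest changes. NDUFB7 changed by 0.94 ± 0.31 in A2780 and by 1.37 ± 0.31 in A2780cis (edgeR adjusted p = 0.0246 and 0.00172), NDUFS7 by 0.80 ± 0.26 and 0.90 ± 0.28 (edgeR adjusted p = 0.0222 and 0.0170). These genes were named after their values were seen.

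The single genes that fell at 6 h were NDUFV3 in A2780 and UQCRFS1 in A2780cis. NDUFV3 changed by -0.38 ± 0.09 (edgeR adjusted p = 0.00257) and UQCRFS1, the Rieske protein of complex III, by -0.31 ± 0.11 (edgeR adjusted p = 0.0296). No member had a different change in the 2 lines at 6 h by edgeR or by DESeq2, whereas 0.692% of all tested genes had a higher and 2.38% a lower change in A2780cis, and 3 members had an unadjusted p under 0.05 by edgeR. With GC content and length offsets 2 members passed, in opposite directions.

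Changes at 6 h moved with GC content. Over the 84 members, Spearman's rho of change and GC content was 0.63 in A2780 and 0.66 in A2780cis, each across genes that share the same 6 libraries. Nuclear protein-coding genes with over 60% GC and a mean log2 CPM over 2 were set against their own means over all libraries. Their median deviation in control libraries of A2780 at 6 h was -0.83, -0.49 and -0.25 on the log2 scale. In the treated libraries it was 0.14, -0.09 and -0.30. The counts also depended on single libraries. In A2780 there were 2 calls without the first control or the first treated library and 13 without the third control. In A2780cis there were 4 without the second control library and 8 without the second or the third treated library. Under scaling by library size 15 members rose and 1 fell in A2780, and 26 rose and none fell in A2780cis. The offsets for GC content and length gave 14 rising and 4 falling members in A2780, and 15 rising and 3 falling ones in A2780cis. Beyond these offsets the part of GC content in the 6 h calls was not tested.

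Untreated A2780cis cells were compared with untreated A2780 cells to ask how the lines differ without drug. At 6 h, 4 members were higher and 30 lower in A2780cis, whereas 25.0% of all tested genes were higher and 22.9% lower. At 12 h, 7 were higher and 37 lower, whereas 25.4% of all tested genes were higher and 27.5% lower. Median differences were -0.26 at both times, against 0.01 and -0.01 over all tested genes. In total, 24 members were lower at both times, that is 24 of 30 and 24 of 37, and 3 were higher at both. The share of all tested genes called alike at both times is not given here. The 12 h controls entering this comparison are those of the treatment comparisons above.

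ATP5PB, a subunit of the peripheral stalk of ATP synthase, had the largest difference, with 343, 407 and 350 CPM in A2780 and 141, 130 and 169 CPM in A2780cis at 6 h (-1.32 ± 0.12, edgeR adjusted p = 6.45e-10). At 12 h the values were 311, 298 and 297 CPM against 118, 106 and 102 CPM (-1.47 ± 0.12, edgeR adjusted p = 6.36e-11). The lines were far apart at both times. The gene overlaps WDR77 on the opposite strand.

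NDUFC2, a complex I subunit, had 45.5, 56.2 and 51.8 CPM in A2780 against 20.9, 21.6 and 29.6 CPM in A2780cis at 6 h, a difference of -1.09 ± 0.12 (edgeR adjusted p = 1.95e-08), and -1.09 ± 0.12 at 12 h (edgeR adjusted p = 8.20e-09). The readthrough gene NDUFC2-KCTD14 shares exons with NDUFC2 and differed by -1.23 ± 0.15 and -0.97 ± 0.13. As their reads overlap, both values describe partly the same reads. ATP5F1B was also lower in A2780cis, by -0.90 ± 0.09 at 6 h and -1.13 ± 0.09 at 12 h, a value named after it was seen.

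NDUFB9, NDUFC1 and NDUFA10, all of complex I, were higher in A2780cis at both times. NDUFA10 had 131, 134 and 135 CPM in A2780 and 174, 165 and 182 CPM in A2780cis at 6 h (0.38 ± 0.08, edgeR adjusted p = 2.70e-04) and differed by 0.30 ± 0.08 at 12 h (edgeR adjusted p = 0.00232). NDUFC1 differed by 0.38 ± 0.09 at 6 h (edgeR adjusted p = 0.00142), a call lost in a fit of the compared groups alone (0.0535). NDUFB9 differed by 0.32 ± 0.13 at 6 h (edgeR adjusted p = 0.0437). Its 6 h call was lost under 7 other settings and without either of 2 control libraries of each line, with adjusted p from 0.0502 to 0.282. At 12 h NDUFB9 differed by 0.43 ± 0.13 (edgeR adjusted p = 0.00667).

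Between 22 and 46 members were called at 6 h, and between 34 and 48 at 12 h, when single libraries were left out. The lowest count at 6 h, 7 higher and 15 lower, came without the second A2780 control library, in which the 6 h sum of members was highest (15384 CPM, against 12751 and 12695 in the other 2). With GC content and length offsets, 7 members were higher and 46 lower in A2780cis at 6 h.

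Control cells of the 2 harvest times, the same libraries as in the treatment comparisons, also differed. In A2780, 7 members were higher and 19 lower at 12 h than at 6 h, whereas 16.6% of all tested genes were higher and 10.3% lower. In A2780cis, 14 were higher and 40 lower, whereas 18.0% of all tested genes were higher and 21.9% lower. Each of the 7 members higher and 19 lower in A2780 was also called in that direction in A2780cis. The share of all genes called in A2780 that were called alike in A2780cis is not given here, so this overlap has no background. The members higher in both lines were NDUFS7, NDUFS8, NDUFV1, NDUFA11, NDUFB7, SDHA and ATP5F1D.

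ATP5F1D had 4.88, 8.23 and 11.5 CPM at 6 h and 19.5, 20.6 and 19.8 CPM at 12 h in untreated A2780 (1.30 ± 0.30, edgeR adjusted p = 0.00341). In untreated A2780cis it had 9.52, 6.12 and 12.2 CPM at 6 h and 34.5, 42.5 and 50.2 CPM at 12 h (2.18 ± 0.29, edgeR adjusted p = 2.35e-05). NDUFS7, an iron-sulphur core subunit of complex I, went from 6.47, 4.21 and 6.46 CPM to 15, 19.1 and 26.8 CPM in A2780cis (1.82 ± 0.27, edgeR adjusted p = 4.31e-05). SDHA was higher at 12 h by 0.41 ± 0.09 in A2780 (edgeR adjusted p = 0.00270) and by 0.35 ± 0.09 in A2780cis (edgeR adjusted p = 0.00328). The harvest times were separate in each of these genes.

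The differences between harvest times moved with GC content. Over the 84 members, Spearman's rho of the difference and GC content was 0.72 in A2780 and 0.74 in A2780cis. Other nuclear protein-coding genes with over 60% GC had a median difference of 0.67 and 0.89, and those of up to 42% GC of -0.27 and -0.36. In untreated A2780cis, 8 of the 10 members with over 60% GC were higher at 12 h, against 74.8% of other genes of that class, and none of the 17 members of up to 42% GC was, against 0.114% of others. With GC content and length offsets, 4 members were higher and 12 lower in A2780, and 14 higher and 16 lower in A2780cis. Harvest time and any difference in the preparation of the libraries cannot be told apart in these controls.

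Counts of this comparison also rested on single libraries. In A2780 there were 8 calls without the first and 6 without the second 6 h control, and 16, 11 and 5 without the first, the second and the third 12 h control. DESeq2 called 40 members in A2780 (6 higher and 34 lower). In A2780cis there were 30 calls (17 higher and 13 lower) without the third 6 h control and 34 (12 higher and 22 lower) without the third 12 h control. Scaling by library size gave 17 higher and 22 lower in A2780cis.

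The remaining genes of the pathway were taken from lists. The 13 protein-coding genes of the mitochondrial genome, which encode the core subunits made inside the organelle, all rose in treated A2780cis at 12 h, with a median change of 0.58 and a range of 0.35 to 0.81. MT-CO1, the catalytic subunit of complex IV, had 11466 ± 769 CPM in controls and 19806 ± 1980 CPM after treatment (SD, n = 3). In A2780 at 12 h, 2 of the 13 rose and 1 fell (median 0.09), and in the interaction 9 of 13 were higher in A2780cis. Of all tested genes, 31.0% rose in A2780cis at 12 h. In A2780 28.6% rose and 26.1% fell, and 9.70% were higher in A2780cis by the interaction. Mitochondrial transcripts took 5.10% to 5.43% of counts in untreated and 8.79% to 9.94% in treated A2780cis libraries at 12 h, and 6.31% to 6.54% and 8.32% to 8.85% in A2780.

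Assembly factors, which help to build the complexes without staying in them, were in the table for 55 of 56 listed genes. In A2780cis at 12 h 20 rose and 5 fell (median 0.13), beside 31.0% and 28.9% of all tested genes. The share that rose was thus near the background, and the share that fell was below it. In A2780 11 rose and 19 fell (median -0.04), beside 28.6% and 26.1% of all tested genes. By the interaction at 12 h, 15 of 55 had a higher and 3 a lower change in A2780cis, beside 9.70% and 14.0% of all tested genes. The highest change in A2780cis was that of SDHAF4, an assembly factor of complex II, with 1.95 ± 0.15 (edgeR adjusted p = 3.25e-11), and SURF1, needed for complex IV, changed by 0.89 ± 0.12 (edgeR adjusted p = 8.39e-07). COA7 and COX10, both serving complex IV, changed by -0.70 ± 0.09 and -0.69 ± 0.12. These 4 were named after their values were seen. Among 5 carriers of electrons and related proteins, ETFA, ETFB and NDUFAB1 rose in A2780cis and CYCS, cytochrome c, changed by -0.10 ± 0.13 (edgeR adjusted p = 0.542). NDUFAB1 is the acyl carrier protein and a complex I subunit and carries no electrons. Its symbol has no number after NDUFA, so the rule on names did not make it a member.

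Of 11 regulators of mitochondrial gene expression, 10 fell in each line at 12 h, with medians of -0.81 in A2780 and -0.82 in A2780cis. Of all tested genes, 26.1% fell in A2780 and 28.9% in A2780cis. NRF1, a transcription factor of respiratory genes, changed by -1.14 ± 0.10 in A2780 (edgeR adjusted p = 3.25e-10) and by -1.13 ± 0.09 in A2780cis (edgeR adjusted p = 1.85e-10). GABPA, the DNA-binding part of GABP, changed by -0.34 ± 0.13 and -0.55 ± 0.13, and YY1 by -0.92 ± 0.10 and -0.90 ± 0.10. TFAM, which packages the mitochondrial genome and serves its transcription, was the exception. It changed by 0.00 ± 0.12 in A2780 and rose by 0.31 ± 0.12 in A2780cis (edgeR adjusted p = 0.0313).

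Ribosomal protein genes, outside the pathway, were counted beside them. Of 82 tested cytosolic ribosomal protein genes, which have short transcripts as well, 64 rose and 2 fell in A2780cis at 12 h (median 0.50), 2 rose and 17 fell in A2780, and 59 had a higher change in A2780cis. Of 78 mitochondrial ribosomal protein genes, 16 rose and 23 fell in A2780cis and 2 rose and 37 fell in A2780. By the interaction, 16 of these 78 had a higher and 2 a lower change in A2780cis. Beside these lists, 31.0% of all tested genes rose and 28.9% fell in A2780cis at 12 h. In A2780 28.6% rose and 26.1% fell, and 9.70% had a higher and 14.0% a lower change in A2780cis. No test of the subunit genes against either list was made.

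Several members share reads with other loci. NDUFC2-KCTD14 and ATP5MF-PTCD1 are readthrough genes over NDUFC2 and ATP5MF, and 36 members overlap a gene on the opposite strand. ATP5MF rose in A2780cis at 12 h by 0.64 ± 0.12 (edgeR adjusted p = 4.29e-05), and ATP5MF-PTCD1 changed by 0.16 ± 0.10 (edgeR adjusted p = 0.157). UQCRH and UQCRHL changed by 0.60 ± 0.13 and 0.66 ± 0.15 in the same comparison. Values of such pairs are uncertain as separate genes.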

How the data were processed

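Total RNA of 24 samples was sequenced after a stranded total RNA library preparation. Per the labels and the study's methods, the authors trimmed reads with Trimmomatic, aligned them to GRCh38.p7 with STAR 2.5.2b and counted exons with featureCounts. The authors deposited one table of expected counts, which are not normalized and hold fractions (9.50% to 12.8% of values per library) for reads of several loci. Whether counting used the strand is not given in the sources used here. The labels give single reads and the study's methods paired-end reads.

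Counts were rounded, filtered with filterByExpr (minimum count 10, minimum total 15), scaled by TMM and fitted with the quasi-likelihood model of edgeR 4.0.16 (R 4.3.3) in 8 groups with 16 residual degrees of freedom. Fold changes are on the log2 scale, p-values were adjusted by Benjamini-Hochberg over 20240 genes, and CPM for plots took a pseudocount of 0.5. The SE is the fold change divided by the root of F. Scripts were tested on simulated data. Genes were matched to GENCODE release 44 (56948 of 63299), which gave types, coordinates, canonical transcripts, their lengths and their GC content. Alternatives were DESeq2 1.42.0 and its size factors, scaling by library size, no filter, unrounded counts, omission of lncRNA and rRNA genes, a replicate block, the compared groups alone, and leaving out each library. Offsets for GC content and length (splines with 5 degrees of freedom) and nuclear protein-coding genes alone were chosen after seeing the data. Member counts under an alternative are given without the share of all genes called in that fit. Replicate libraries of a group differed by more than sampling noise.

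Members and lists were chosen with earlier results of these data known. The text names, per complex and line at 12 h, the called member with the largest rise and the largest fall (mean log2 CPM of at least 2), the 5 members with the smallest p of the interaction, the 3 largest differences of untreated lines in each direction called at both times, the 2 smallest p per line between harvest times, complex II and the tissue isoforms; other names were chosen after their values were seen. A result for a gene that this rule takes in is not reported here.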

Additional observations from a re-analysis of the deposited data

Results flagged for a closer look

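At 12 h the treatment change differed between A2780 and A2780cis in 51 members by the interaction test, each with the higher change in A2780cis. The named members among them were SDHC with a difference of 0.54, UQCRQ with 0.78, COX6A1 with 0.92, ATP5F1B with 0.59 and ATP5MC1 with 0.93 on the log2 scale. Of these, ATP5F1B and ATP5MC1 were called down in A2780 and up in A2780cis. All 5 had an adjusted p at or below 0.05 (edgeR, or DESeq2 in its own fit) in each alternative fit and without any single library. These 5 were named for their smallest p in the same data, so this says nothing of the other members.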

How the results depend on the processing

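Of the 10 counts of called members, those of treated A2780cis at 12 h and of the untreated lines at 12 h stayed within 1.5 times under each alternative. In A2780 at 6 h (8 calls) there were 16 under scaling by library size, 13 without a filter on low counts and 18 with GC content and length offsets. In A2780 at 12 h (22) there were 39 under scaling by library size, 37 in a fit of the compared groups alone and 45 with the offsets. In A2780cis at 6 h (16) there were 26 under scaling by library size. With the offsets there were 2 for the interaction at 6 h (0), 53 for the untreated lines at 6 h (34), 16 for harvest time in A2780 (26, and 40 by DESeq2) and 30 for harvest time in A2780cis (54). Causes were not tested. Scaling by library size moved the median of all genes to 0.24 in A2780 and to 0.15 in A2780cis at 12 h, and to -0.16 in their difference.

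Leaving out each library in turn gave 2 to 13 calls in A2780 at 6 h, 19 to 23 in A2780 at 12 h, 4 to 21 in A2780cis at 6 h, 51 to 63 in A2780cis at 12 h, 0 for the interaction at 6 h and 26 to 66 at 12 h, 22 to 46 and 34 to 48 between untreated lines at 6 h and 12 h, and 5 to 34 and 30 to 58 for harvest time in A2780 and A2780cis.

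Some changes near 0 that were not called turned their sign, and that of SDHB in A2780cis at 12 h was then called with the offsets. SDHD in A2780 at 6 h was 0.06 with the offsets. In A2780cis at 6 h, SDHB was 0.05 under scaling by library size and -0.14 to 0.06 without single libraries, SDHC was -0.01 to 0.05 without single libraries, and SDHD was -0.01 with DESeq2 and with its size factors and -0.05 to 0.07 without single libraries. SDHB in A2780cis at 12 h was -0.16 with the offsets (edgeR adjusted p = 0.00804) and -0.11 to 0.19 without single libraries.

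Replicate numbers were shared between groups. Deviations of same-numbered libraries correlated between -0.655 and 0.612, and in no comparison were all above 0.1. They were all positive for treated against untreated A2780cis at 12 h (0.612, 0.263 and 0.089). The same held between untreated lines at 12 h (0.421, 0.025 and 0.459). Whether same-numbered libraries shared a culture or a preparation was not tested. With a replicate block the counts were 12 and 22 in A2780, 18 and 62 in A2780cis, 0 and 52 for the interaction, and 36 and 45 between untreated lines, at 6 h and 12 h each, and 29 and 56 for harvest time in A2780 and A2780cis.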
